A study of Mus musculus with 20 samples.

Results

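The 10 genes described here encode the insulin-like growth factor (IGF) axis of mouse kidney epithelial cells: the ligand Igf1, the receptors Igf1r and Insr, the adaptor Irs1 and the binding proteins Igfbp2, Igfbp3, Igfbp4, Igfbp5, Igfbp6 and Igfbp7. They were taken by symbol from the 39179 genes counted in each library, and all 10 were matched. They had been selected on their expression level in these same groups, as CPM (a gene's count relative to its library's scaled total), so their levels and differences are given as a description, with no test, and support nothing beyond themselves.

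In this axis, IGF1 and IGF2 bind the IGF1 receptor, a tyrosine kinase of the cell surface that is closely related to the insulin receptor and signals through the docking proteins IRS1 and IRS2 to PI3K and AKT. Secreted binding proteins hold the ligands away from the receptor, prolong their stay in the tissue fluid, and release them when proteases cut the binding protein. In the kidney the axis takes part in growth of the nephron, and tubule cells carry receptors for ligands that reach them from the blood or are made locally.

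RNA was sequenced from immortalised epithelial cells of C57BL/6J mouse kidney, in 4 groups of 5 libraries. The groups are Rec (genotype label Fh1 wt re-expressed), clone1 and clone19 (both labelled Fh1 deletion), and Fh1_fl_fl (labelled Fh1 wt). The product of Fh1 is fumarate hydratase, which turns fumarate into malate in the mitochondrial TCA cycle. All groups were grown in DMEM with serum and uridine. Each deletion group is 1 clone, so what belongs to the clone and what belongs to the loss of Fh1 cannot be told apart, and the labels do not name the clone behind Rec. Nothing in the labels states that replicates are separate cultures, so SDs and p-values cover only the variation among these libraries, part or all of which may be technical.

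Gene totals ran from 5988447 to 18972176 counts per library. Fh1 itself measured 63.8 to 80.7 CPM in Rec, 108 to 123 CPM in clone1, 73.5 to 91.5 CPM in clone19 and 84.6 to 97.1 CPM in Fh1_fl_fl; a count over the whole gene does not show whether an exon was lost, so it is no check of the labels. All 10 kidney epithelial markers on the list reached 1 CPM in every group, with summed levels of 4407 to 4856 CPM in Rec, 2737 to 3372 CPM in clone1, 2182 to 2491 CPM in clone19 and 3595 to 4144 CPM in Fh1_fl_fl. The 6 leukocyte markers summed to 22 to 27.5 CPM in Rec, 21.4 to 23.7 CPM in clone1, 23.8 to 31.3 CPM in clone19 and 45.9 to 52.4 CPM in Fh1_fl_fl, nearly all of it Csf1r and Cd68, with the defining marker Ptprc at most 1.16 CPM. The part of the leukocyte markers in the differences described here was not tested. The 6 hepatocyte markers summed to at most 0.235 CPM in any library. One library stands apart: Gm42418 took 8.2% of the gene counts of clone19 replicate 3 and 0.212 to 0.463% in the other libraries.

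Of the 10 members, 6 had enough counts to enter the fit (Igf1r, Insr, Irs1, Igfbp3, Igfbp4 and Igfbp7), and 4 did not (Igf1, Igfbp2, Igfbp5 and Igfbp6). Among the 6, groups that did not overlap in any library were found as follows, each beside the share of the 12671 genes tested that edgeR's quasi-likelihood test called at an adjusted p under 0.05. These are unlike measures, and the share of all tested genes whose groups did not overlap was not computed. In Rec against Fh1_fl_fl, 0 members were higher and 4 lower without overlap, where 33.4% of genes were called higher and 37.4% lower. In clone1 against Fh1_fl_fl, 3 were higher and 2 lower, where 38% of genes were called higher and 40.5% lower. In clone19 against Fh1_fl_fl, 3 were likewise higher and 2 lower, where 36.8% of genes were called higher and 36.1% lower. Rec against clone1 gave 1 member higher and 4 lower, with 39.7% of genes called higher and 38.1% lower. Rec against clone19 gave 1 member higher and 4 lower, with 35.8% of genes called higher and 38% lower. For clone1 against clone19, 2 members were higher and 1 lower, with 31.6% of genes called higher and 33.5% lower. The 3 comparisons with Fh1_fl_fl share the same 5 control libraries, and nothing is read from the members' counts, since the values chose them. In a bulk sample, fewer cells of a type and less RNA per cell cannot be told apart.

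The spread of the 4 group means differed widely between members. On the log2 CPM scale it was 9.73 for Igfbp4, a wider range than in 99.98% of tested genes, and 4.06 for Igfbp3, wider than in 95.9%. The ranges of Igf1r, at 1.51, and Igfbp7, at 1.45, were wider than in 73.2% and 71.4% of tested genes. Insr and Irs1 spanned 0.91 and 0.83, below the median of 0.97 over all tested genes.

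**Figure D1:**
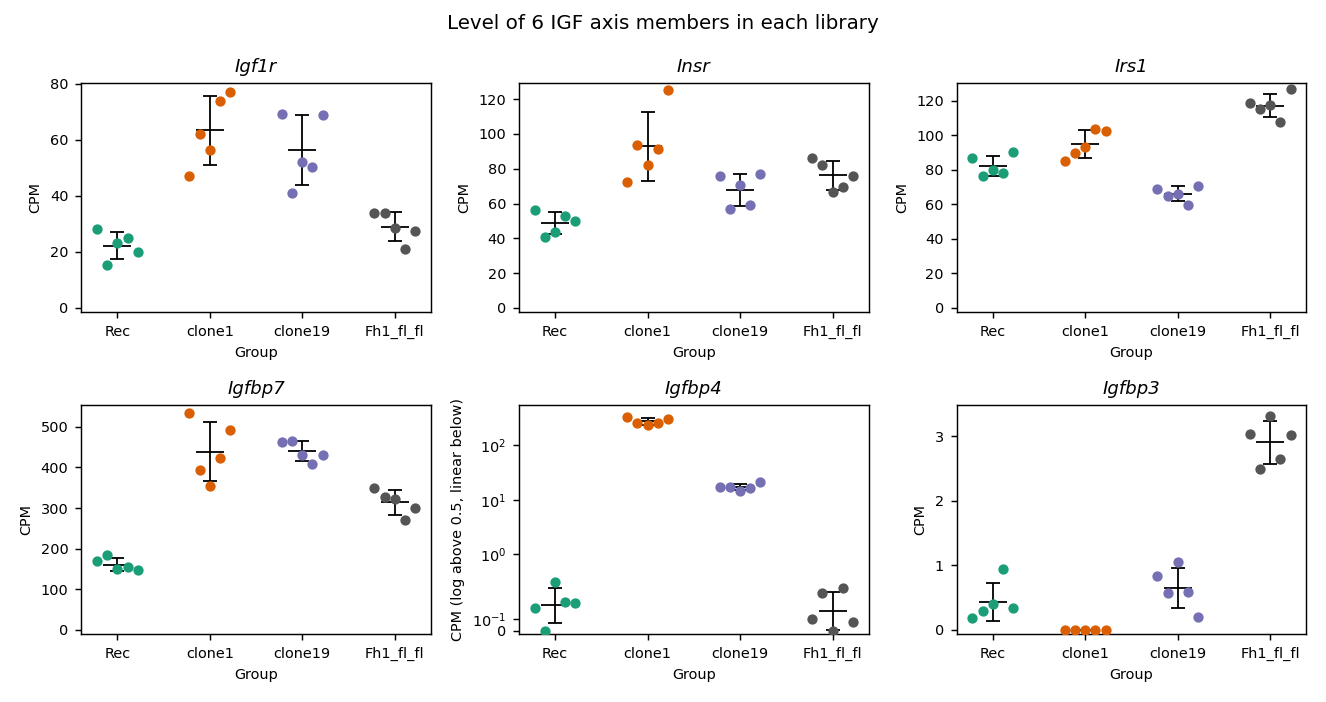
CPM of the 6 members that entered the fit, 1 panel per gene, with 1 point per library, the mean as a bar and the SD as whiskers (n = 5 per group); the Igfbp4 axis is logarithmic above 0.5 CPM. Igfbp4 sits at 241 to 331 CPM in clone1 and 14.7 to 21.1 CPM in clone19 and at or below 0.409 CPM in Rec and Fh1_fl_fl, while Igfbp3 is at 0 in all 5 clone1 libraries.

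The ligand was scarcely detected. Igf1, the growth factor itself (chr10:87858265-87937042, plus strand, GRCm38), had 1 count over the 5 Rec libraries, 3 in clone1, 7 in clone19 and 40 in Fh1_fl_fl. In clone1 all 3 counts came from replicate 3, and in clone19 5 of the 7 came from replicate 5. Fh1_fl_fl was the group with Igf1 counts in all 5 libraries, at 0.554 ± 0.174 CPM (SD, n = 5). Scaled for depth, the level in Rec was 0.0298 times that in Fh1_fl_fl (95% counting interval 0.000737 to 0.176), in clone1 0.111 times (0.0219 to 0.348) and in clone19 0.304 times (0.115 to 0.687). The clone19 libraries overlapped those of Fh1_fl_fl. The limit that a count of 0 allows, 3 counts, is 0.147 to 0.525 CPM in a library, so most Igf1 values lie near it.

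Igf1r, the tyrosine kinase receptor for IGF1 and IGF2 (chr7:67952827-68233668, plus strand), was higher in both clones than in either of the other groups. It measured 28.0, 15.2, 23.1, 24.9 and 19.9 CPM in Rec and 47.3, 61.9, 56.3, 74.0 and 77.2 CPM in clone1. Its level was 69.3, 41.1, 51.9, 50.4 and 69.0 CPM in clone19 and 33.8, 33.8, 28.6, 21.2 and 27.6 CPM in Fh1_fl_fl. Every clone library lay above every Rec and Fh1_fl_fl library, whereas the clones overlapped each other and Rec overlapped Fh1_fl_fl. The means were 22.2 ± 4.90 CPM in Rec, 63.3 ± 12.4 CPM in clone1, 56.4 ± 12.4 CPM in clone19 and 29.0 ± 5.24 CPM in Fh1_fl_fl (SD, n = 5 each). The fitted log2 difference from Fh1_fl_fl was -0.39 (SE 0.16) in Rec, 1.12 (SE 0.15) in clone1 and 0.95 (SE 0.16) in clone19. Against the clones, Rec differed by -1.51 (SE 0.16) from clone1 and -1.34 (SE 0.16) from clone19 on the log2 scale. Between the clones the log2 difference, clone1 minus clone19, was 0.17 (SE 0.15).

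Insr, the insulin receptor (chr8:3122061-3279617, minus strand), was lowest in Rec. It measured 56.4, 40.8, 43.7, 52.7 and 49.9 CPM in Rec and 72.5, 93.5, 81.9, 91.2 and 125 CPM in clone1. The 5 clone19 libraries had 75.9, 56.6, 70.8, 59.4 and 76.7 CPM, and those of Fh1_fl_fl had 86.3, 82.2, 66.7, 69.6 and 76.0 CPM. All Rec libraries were below all others, by a narrow margin against clone19, and the remaining groups overlapped one another. The mean was 48.7 ± 6.41 CPM in Rec, 92.8 ± 19.8 CPM in clone1, 67.9 ± 9.35 CPM in clone19 and 76.2 ± 8.24 CPM in Fh1_fl_fl (SD, n = 5 each). The log2 difference from Fh1_fl_fl was -0.65 (SE 0.12) in Rec, 0.29 (SE 0.12) in clone1 and -0.17 (SE 0.12) in clone19. The clones thus lay on opposite sides of Fh1_fl_fl, each within overlap of it. Rec minus clone1 was -0.93 (SE 0.12) and Rec minus clone19 was -0.48 (SE 0.12) in log2, and clone1 minus clone19 was 0.46 (SE 0.12).

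Irs1, the docking protein that the activated receptors phosphorylate (chr1:82233101-82291416, minus strand), was highest in Fh1_fl_fl. It measured 87.1, 76.6, 79.8, 78.2 and 90.2 CPM in Rec and 85.0, 89.7, 93.3, 104 and 103 CPM in clone1. In clone19 the libraries had 69.1, 64.7, 66.3, 59.8 and 71.0 CPM, against 119, 115, 118, 108 and 127 CPM in Fh1_fl_fl. No library of another group reached those of Fh1_fl_fl, all clone19 libraries lay lowest, and Rec overlapped clone1. Means were 82.4 ± 5.93 CPM in Rec, 94.8 ± 8.06 CPM in clone1, 66.2 ± 4.33 CPM in clone19 and 117 ± 6.87 CPM in Fh1_fl_fl (SD, n = 5 each). The log2 difference from Fh1_fl_fl was -0.51 in Rec, -0.31 in clone1 (SE 0.07 in both) and -0.83 (SE 0.07) in clone19. In log2, Rec minus clone1 was -0.20 (SE 0.07), Rec minus clone19 0.32 (SE 0.07) and clone1 minus clone19 0.52 (SE 0.07). The predicted gene Gm9747 overlaps Irs1 on the opposite strand, and without a stated strand setting reads of the pair cannot be told apart.

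Within groups the receptor genes were low in the same libraries. In Rec, replicate 2 had the lowest level of Igf1r, Insr and Irs1, and also of Igf2r and Irs2 outside the members. In clone1, replicate 1 was lowest for the same 5 genes, and in clone19, replicate 2 was lowest for all of them but Irs1. Igfbp7 had its lowest value in other libraries in these 3 groups. In Fh1_fl_fl, replicate 4 was lowest for Igf1r, Irs1, Igf2r and Irs2, and for Igfbp7 and Htra1 as well, while Insr was lowest in replicate 3. RNA quality is not given in the sources used here, and the part of this shared spread in the differences between groups was not tested.

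**Figure D2:**
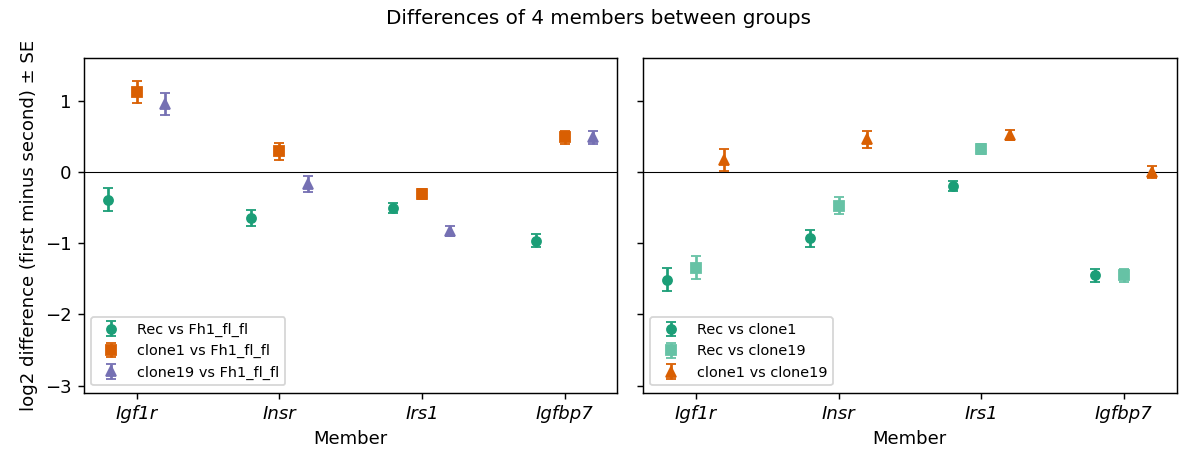
Fitted log2 differences with their SE for Igf1r, Insr, Irs1 and Igfbp7, comparisons with Fh1_fl_fl on the left and those among Rec, clone1 and clone19 on the right; 0 is no difference and positive values are higher in the group named first. Igf1r and Igfbp7 lie above 0 in both clones and below 0 in Rec against Fh1_fl_fl, and Irs1 lies below 0 in all 3.

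The binding proteins held both the member with the highest level per kb and the one with the widest difference. For the 3 whose levels are described in full, the 250 bases ahead of the start site are shown, so that the sequence stands beside the levels. They are from RefSeq, build GRCm38.p6, written 5′ to 3′ on the gene's strand. Capitals mark matches on either strand to ACGTG (the core that hypoxia factors bind), CAGGTG (the E-box that Zeb and Snail factors bind) and TATAAA (the TATA box). The Igfbp4 sequence is chr11:99040994-99041243, plus strand; Igfbp3 is chr11:7213924-7214173, minus strand; and Igfbp7 is chr5:77408046-77408295, minus strand.
Igfbp4: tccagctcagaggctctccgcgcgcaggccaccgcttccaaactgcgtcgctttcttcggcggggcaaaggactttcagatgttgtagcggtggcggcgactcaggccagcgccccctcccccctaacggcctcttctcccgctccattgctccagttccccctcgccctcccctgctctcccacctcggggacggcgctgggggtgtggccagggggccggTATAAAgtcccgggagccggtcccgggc
Igfbp3: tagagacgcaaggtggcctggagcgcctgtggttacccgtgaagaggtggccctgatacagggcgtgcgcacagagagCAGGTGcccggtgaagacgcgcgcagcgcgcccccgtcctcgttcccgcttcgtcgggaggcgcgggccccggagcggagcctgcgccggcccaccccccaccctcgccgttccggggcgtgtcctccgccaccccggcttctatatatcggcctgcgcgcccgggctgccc
Igfbp7: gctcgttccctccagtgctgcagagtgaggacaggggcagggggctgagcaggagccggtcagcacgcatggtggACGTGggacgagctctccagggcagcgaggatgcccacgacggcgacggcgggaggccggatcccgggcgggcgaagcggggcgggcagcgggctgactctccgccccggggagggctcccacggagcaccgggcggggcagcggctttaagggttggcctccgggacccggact

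The 3 sequences had no motif of the search in common. TATAAA occurred 1 time ahead of Igfbp4 and in 12.4% of the 32851 promoters in the table, CAGGTG 1 time ahead of Igfbp3 and in 17.2%, and ACGTG 1 time ahead of Igfbp7 and in 16.6%. Igfbp7 also held 4 GC boxes (GGGCGG), which 32.7% of promoters carry. None of the 3 held GTAAACA (a forkhead site, 3.17% of promoters), TGACG (a CRE half-site, 17.8%) or TGACNNNGC (the antioxidant response core, 10.2%). Both strands were searched for each motif, and ACGTG and TGACG can share letters, as in TGACGTG. All were rich in CpG, with 22 CpG ahead of Igfbp4, 32 ahead of Igfbp3 and 26 ahead of Igfbp7, where the median promoter has 6. Entries were found for 9 of the 10 members, and a match is only a run of letters, not a bound site.

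Igfbp7, a secreted protein that binds IGFs weakly and insulin more readily than its relatives do (chr5:77349240-77408041, minus strand), was the member with the highest level per kb in every group. It measured 169, 185, 150, 155 and 147 CPM in Rec and 534, 394, 353, 422 and 491 CPM in clone1. The clone19 libraries had 463, 465, 431, 407 and 430 CPM, and the Fh1_fl_fl libraries had 349, 328, 322, 270 and 301 CPM. Rec was below every other library, and both clones were above every Fh1_fl_fl library, clone1 by a narrow margin. Means were 161 ± 15.7 CPM in Rec, 439 ± 73.3 CPM in clone1, 439 ± 24.6 CPM in clone19 and 314 ± 29.9 CPM in Fh1_fl_fl (SD, n = 5 each). Relative to Fh1_fl_fl, the log2 difference was -0.96 (SE 0.09) in Rec, 0.48 (SE 0.09) in clone1 and 0.49 (SE 0.09) in clone19. Rec minus clone1 and Rec minus clone19 were both -1.45 (SE 0.09) in log2, while the clones overlapped. Polr2b overlaps Igfbp7 on the opposite strand, so reads of that pair cannot be told apart either.

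Igfbp4, an inhibitory carrier of IGFs that the protease PAPP-A cuts (chr11:99041244-99054392, plus strand), was abundant in clone1, moderate in clone19 and nearly undetected elsewhere. It measured 0.187, 0, 0.409, 0.235 and 0.231 CPM in Rec and 331, 254, 241, 253 and 302 CPM in clone1. In clone19 it measured 16.9, 17.3, 14.7, 16.5 and 21.1 CPM, and in Fh1_fl_fl 0.0979, 0.311, 0, 0.358 and 0.0720 CPM. The 5 clone1 libraries stood above the 5 clone19 libraries, and these above all others, while Rec and Fh1_fl_fl overlapped. In counts, the groups held 13 in Rec, 13288 in clone1, 710 in clone19 and 11 in Fh1_fl_fl. Scaled for depth, clone1 had 1784 times the Fh1_fl_fl level (95% counting interval 997 to 3576) and clone19 had 112 times that level (62.4 to 226). The clones differed from each other 15.9-fold (14.7 to 17.2), with clone1 above clone19, a log2 difference of 3.98 (SE 0.12). Rec minus clone1 was -10.22 (SE 0.20) and Rec minus clone19 was -6.23 (SE 0.26) in log2. Rec minus Fh1_fl_fl was 0.46 (SE 0.67), from 13 and 11 counts.

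Markers of fibroblasts and pericytes, cell types that also make Igfbp4 in tissue, summed to 1.31 to 2.06 CPM in Rec, 4.12 to 6.93 CPM in clone1, 12.1 to 15.4 CPM in clone19 and 1.22 to 1.76 CPM in Fh1_fl_fl. Of these 8 markers, none reached 1 CPM in Rec, 2 did in clone1, 3 did in clone19 and none did in Fh1_fl_fl, and Pdgfrb was at 0 in every library. Endothelial markers summed to 0.706 to 1.14 CPM in Rec, 1.22 to 2.86 CPM in clone1, 7.25 to 9.79 CPM in clone19 and 0.215 to 0.567 CPM in Fh1_fl_fl. Both sums were highest in clone19. Of the 3 fibroblast and pericyte markers at 1 CPM there, Dcn (8.49 CPM) and Pdgfra (3.57 CPM) had their highest mean in clone19. Col1a1 had its highest mean in clone1, at 3.45 CPM beside 1.41 CPM in clone19. The endothelial sum in clone19 was nearly all Cdh5, at 7.91 CPM, and no other of the 6 markers reached 1 CPM. The part of these cell types in the Igfbp4 difference was not tested.

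Igfbp3, the chief IGF carrier of blood plasma (chr11:7206086-7213923, minus strand), ran the other way, with its highest level in Fh1_fl_fl and none detected in clone1. It measured 0.187, 0.295, 0.409, 0.941 and 0.347 CPM in Rec and 0 in all 5 clone1 libraries. The level was 0.8286, 0.575, 1.05, 0.590 and 0.205 CPM in clone19 and 3.04, 2.49, 3.32, 2.65 and 3.02 CPM in Fh1_fl_fl. Fh1_fl_fl lay above every other library, and Rec overlapped clone19. Counts over the group were 24 in Rec, 0 in clone1, 24 in clone19 and 206 in Fh1_fl_fl. The log2 difference from Fh1_fl_fl was -2.80 (SE 0.30) in Rec and -2.26 (SE 0.30) in clone19. Against a floor of 3 counts over the group, clone1 was at least 46.5-fold lower than Fh1_fl_fl and at least 9.42-fold lower than clone19, and Rec was at least 6.46-fold higher than clone1. Rec minus clone19 was -0.54 (SE 0.44) in log2.

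The other binding proteins were near the limit of detection. Igfbp6, which prefers IGF2 to IGF1 (chr15:102144362-102149511, plus strand), had 3 counts in Rec, 15 in clone1, 20 in clone19 and 12 in Fh1_fl_fl. Its clone19 libraries, at 0.350 to 0.691 CPM, lay above the Fh1_fl_fl libraries, at 0 to 0.311 CPM, with a ratio of 2.90 (95% counting interval 1.35 to 6.51). Rec had 0.162 times the clone1 level (0.0300 to 0.571) and 0.103 times the clone19 level (0.0196 to 0.347). Igfbp2, a carrier made by many fetal tissues (chr1:72824503-72852474, plus strand), had 1 count, in Rec replicate 5. Its neighbour Igfbp5, which binds to extracellular matrix (chr1:72857932-72874884, minus strand), ends 5457 bases from the end of Igfbp2 and had 4 counts, all in clone1. Neither can be compared between groups at this depth.

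Per kb of exon, Igfbp7 led the members in all groups, at 133 ± 13.0 CPM per kb in Rec, 363 ± 60.6 in clone1, 363 ± 20.4 in clone19 and 260 ± 24.8 in Fh1_fl_fl (SD, n = 5 each). Irs1 came next in Rec, clone19 and Fh1_fl_fl. In clone1 it was Igfbp4, at 62.6 ± 8.75 CPM per kb, ahead of Irs1 at 10.4 ± 0.882. In clone19 Irs1 stood at 7.24 ± 0.473 CPM per kb, above every library of the genes after it, and Igfbp4, at 3.91 ± 0.528 CPM per kb, overlapped both Insr at 4.94 ± 0.680 and Igf1r at 3.36 ± 0.739. In Rec and Fh1_fl_fl the order after Igfbp7 was Irs1, Insr, Igf1r and Igfbp3, with no overlap between neighbours in either group. Irs1 stood at 9.01 CPM per kb in Rec and 12.8 in Fh1_fl_fl, and Igf1r at 1.32 in Rec and 1.73 in Fh1_fl_fl.

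Summed over Igfbp1 to Igfbp7, the binding protein level was 133 ± 12.9 CPM per kb in Rec, 426 ± 69.1 in clone1, 368 ± 20.5 in clone19 and 261 ± 24.9 in Fh1_fl_fl (SD, n = 5 each). Rec lay below every other group, and both clones lay above Fh1_fl_fl. Igfbp7 made up 99.8% of the sum in Rec, 85.2% in clone1, 98.8% in clone19 and 99.6% in Fh1_fl_fl. The remainder in clone1 was almost all Igfbp4, at 14.7 ± 0.627% of the sum (SD, n = 5), against 1.07 ± 0.156% in clone19. Igfbp3 held 0.107% of the sum in Rec, 0% in clone1, 0.0564% in clone19 and 0.358% in Fh1_fl_fl. These are shares of RNA level, not of protein.

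**Figure D3:**
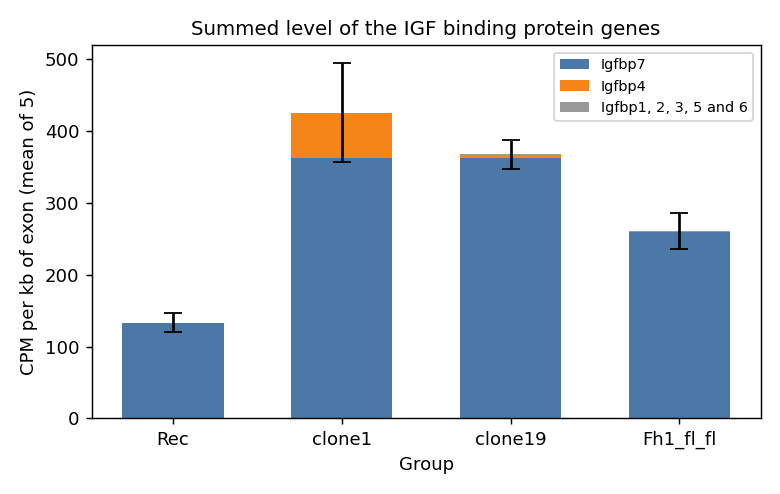
Summed level of the 7 IGF binding protein genes in CPM per kb of exon, as stacked bars of group means with the SD of the sum (n = 5 per group). Igfbp7 fills nearly all of each bar except that of clone1, where it is 85.2%. The Igfbp4 segment is 14.7% of the clone1 bar and too thin to see in Rec and Fh1_fl_fl.

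For the 3 members with the widest ranges among those that entered the fit, the genes nearest in pattern were looked up. Likeness was the root-mean-square difference between centred group means of log2 CPM, with the same prior of 2 counts, over 4 groups. It was taken among 12084 or 12085 genes averaging at least 1 CPM. The nearest to Igfbp4 were Ugt2b34 at 0.62, Dpysl3 at 1.07 and Nrn1 at 1.103, where the median gene was at 4.09. Ugt2b34 averaged 0.0826 CPM in Rec, 620 CPM in clone1, 16.02 CPM in clone19 and 0.255 CPM in Fh1_fl_fl, but it has close copies in the genome that can share reads, so its count is uncertain. Nearest to Igfbp3 were Igsf11 at 0.11, the long noncoding RNA Neat1 at 0.15 and Tc2n at 0.18, with a median of 1.48. Igfbp3 had no count in clone1, so its clone1 value here was set by the prior of 2 counts. These distances therefore depend on the prior, and the true drop of Igfbp3 in clone1 may be larger. Neat1 averaged 202 CPM in Rec, 61.7 CPM in clone1, 232 CPM in clone19 and 1201 CPM in Fh1_fl_fl. For Igf1r they were Xpr1, Ubxn11 and Cgnl1, at 0.04, 0.05 and 0.06 against a median of 0.74. The distance grows with a member's range, so it is not compared between members, and agreement over only 4 group means is a description of these libraries.

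The rest of the pathway was read from a list of 78 genes outside the members, all matched, of which 66 had enough counts to be tested. More of its genes were lower than higher in Rec against each of the other groups. Shares of the 66 are given below, each beside the share of all tested genes called. Rec against Fh1_fl_fl called 17 higher and 31 lower (25.8% and 47.0%, beside 33.4% and 37.4%). The median log2 difference was -0.16 (-0.14 with genes at 0 counts set at their bound) beside -0.03 over all tested genes. For clone1 against Fh1_fl_fl the calls were 29 higher and 26 lower (43.9% and 39.4%, beside 38% and 40.5%), with a median of 0.01 beside -0.03. They became 27 and 33 when libraries were scaled by their totals alone. For clone19 against Fh1_fl_fl the calls were 31 higher and 20 lower (47.0% and 30.3%, beside 36.8% and 36.1%), with a median of 0.12 beside 0.00. This split became 22 and 26 under the same scaling. Rec against clone1 called 15 higher and 35 lower (22.7% and 53.0%, beside 39.7% and 38.1%), with a median of -0.24 beside 0.01. Rec against clone19 called 15 higher and 38 lower (22.7% and 57.6%, beside 35.8% and 38%), with a median of -0.29 beside -0.02. Between clone1 and clone19, 24 were higher and 20 lower (36.4% and 30.3%, beside 31.6% and 33.5%), with a median of 0.08 beside -0.02. Scaling by totals moved the median log2 difference of all genes by -0.13 in Rec, -0.14 in clone1 and -0.12 in clone19 against Fh1_fl_fl, and turned the calls over all genes in Rec against Fh1_fl_fl to 3280 higher and 5689 lower, beside 4228 higher and 4738 lower.

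Other ligands and the clearance receptor came first by role. Igf2, the fetal growth factor, had 5 counts in Rec, 17 in clone1, 43 in clone19 and 5 in Fh1_fl_fl. Against Fh1_fl_fl this was 5.02 times the level in clone1 (95% counting interval 1.78 to 17.4) and 15.0 times in clone19 (5.94 to 48.4); Igf2 was not tested, and Igf2os overlaps it. Ins1, Ins2 and Igfbp1 had no count in any library. Igf2r, the receptor that takes up IGF2 for degradation, averaged 160 ± 28.4 CPM in Rec, 363 ± 98.2 CPM in clone1, 278 ± 58.7 CPM in clone19 and 217 ± 36.3 CPM in Fh1_fl_fl (SD, n = 5 each). It was lower in Rec than in Fh1_fl_fl (log2 -0.44, edgeR adjusted p = 0.0137), a call lost without Rec replicate 2 (log2 -0.35, adjusted p = 0.0574; range over alternatives 1.32e-05 to 0.0574). Relative to Fh1_fl_fl it was higher in clone1 (log2 0.74, adjusted p = 0.000114) and in clone19 (log2 0.36, adjusted p = 0.0430). The clone19 call was lost under library totals (adjusted p = 0.181) and DESeq2 (0.09865), and without clone19 replicate 1 or 5 or Fh1_fl_fl replicate 3, 4 or 5 (0.0553 to 0.148); over all alternatives the range was 0.00244 to 0.181. Rec was lower than clone1 (log2 -1.18, adjusted p = 1.48e-07) and clone19 (log2 -0.80, adjusted p = 5.96e-05).

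Proteases that cut the binding proteins, and the stanniocalcins that inhibit PAPP-A, were read next. Of 7 tested, Rec against Fh1_fl_fl gave 1 higher and 2 lower, clone1 against Fh1_fl_fl 5 higher and 2 lower, and clone19 against Fh1_fl_fl 6 higher and 1 lower. Rec against clone19 gave 1 higher and 6 lower, and Rec against clone1 gave 1 higher and 4 lower. Of all tested genes, 33.4 to 39.7% were called higher and 36.1 to 40.5% lower in these comparisons. Pappa, the protease that cuts the human IGFBP4 protein, measured 0.187, 0.295, 0.245, 0.353 and 0.116 CPM in Rec and 0.0995, 0.387, 0, 0.458 and 0.173 CPM in clone1. It measured 3.65, 1.84, 5.60, 2.65 and 3.48 CPM in clone19 and 1.08, 2.18, 0.567, 1.79 and 1.15 CPM in Fh1_fl_fl. So Pappa was low in clone1, where Igfbp4 was highest, and similarly low in Rec, where Igfbp4 was nearly undetected. It was highest in clone19, where Igfbp4 was second highest. Whether the levels of Pappa and Igfbp4 are linked was not tested. Pappa had only 13 counts in Rec and 10 in clone1, near the limit of detection. Against Fh1_fl_fl it was lower in Rec (log2 -2.50, SE 0.47, edgeR adjusted p = 3.86e-05) and in clone1 (log2 -2.57, adjusted p = 5.45e-05) and higher in clone19 (log2 1.33, adjusted p = 0.000294). Rec was lower than clone19 (log2 -3.83, adjusted p = 8.65e-09), and clone1 was lower than clone19 too (log2 -3.90, SE 0.46, adjusted p = 3.23e-08).

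Pappa2, the relative that cuts the human IGFBP3 and IGFBP5 proteins, went with the clones in another order. It had 0 counts in Rec, 217 in clone1, 38 in clone19 and 2 in Fh1_fl_fl. The gene 1600012P17Rik overlaps Pappa2 on the same strand, so reads where they overlap cannot be told apart. Scaled for depth, clone1 had 160 times the Fh1_fl_fl level (95% counting interval 43.8 to 1332; edgeR adjusted p = 8.97e-13) and clone19 had 33.0 times (8.54 to 283; adjusted p = 6.27e-07). Clone1 was 4.85 times clone19 (3.42 to 7.04; adjusted p = 1.52e-07). Both Fh1_fl_fl counts came from replicate 1; without it the group was at 0, and Pappa2 was at least 75.8-fold higher in clone1 and at least 15.6-fold higher in clone19, against 3 counts over the 4 libraries left. The fitted log2 difference then moved to 8.59 in clone1, beside 6.84 with all libraries, and to 6.31 in clone19, beside 4.59. Rec was at least 89.6-fold lower than clone1 and at least 18.5-fold lower than clone19, against 3 counts over the group.

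The stanniocalcins were high in clone19. Stc2 measured 0 in every Rec library and 1.69, 0.968, 0.770, 1.83 and 2.25 CPM in clone1. It measured 23.5, 23.9, 32.0, 29.0 and 27.6 CPM in clone19 and 0.587, 0.519, 0.324, 0.573 and 0.720 CPM in Fh1_fl_fl. No 2 groups overlapped. Against Fh1_fl_fl, Stc2 was at least 10.9-fold lower in Rec (edgeR adjusted p = 5.03e-06), higher in clone1 (log2 1.43, adjusted p = 0.000227) and higher in clone19 (log2 5.59, SE 0.20, adjusted p = 4.84e-17). Rec was at least 29.7-fold lower than clone1 and at least 534-fold lower than clone19, and clone1 was lower than clone19 (log2 -4.16, SE 0.18, adjusted p = 3.42e-15). Stc1 had 7 counts in Rec, 14 in clone1, 446 in clone19 and 2 in Fh1_fl_fl. Its clone19 level was 388 times that of Fh1_fl_fl (95% counting interval 107 to 3213; adjusted p = 5.57e-14). The clone1 level was 10.3 times that of Fh1_fl_fl (2.38 to 93.7; adjusted p = 0.0145), a call lost without clone1 replicate 5 (adjusted p = 0.0751; range over alternatives 0.00283 to 0.0751). Both Fh1_fl_fl counts of Stc1 came from replicate 2; without it Stc1 was at least 223-fold higher in clone19 and at least 5.95-fold higher in clone1 than the same floor. The fitted log2 difference then moved to 9.92 in clone19, beside 8.12 with all libraries, and to 4.735 in clone1, beside 2.93. Clone19 stood above Rec and clone1, with Rec minus clone19 at log2 -6.41 (adjusted p = 3.44e-13; log2 -7.28 without Rec replicate 4) and clone1 minus clone19 at log2 -5.19 (adjusted p = 5.80e-12).

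Htra1, a secreted serine protease whose human form cuts IGF binding proteins, was higher in all 3 groups than in Fh1_fl_fl. It measured 333, 339, 294, 315 and 298 CPM in Rec and 454, 335, 297, 363 and 455 CPM in clone1. In clone19 it measured 468, 427, 420, 417 and 424 CPM, against 94.1, 92.1, 79.0, 78.2 and 82.1 CPM in Fh1_fl_fl. No library of the 3 groups came near those of Fh1_fl_fl, and the log2 difference was 1.89 in Rec (edgeR adjusted p = 7.00e-16), 2.16 in clone1 (adjusted p = 1.76e-17) and 2.34 in clone19 (adjusted p = 7.49e-18). Rec was lower than clone1 (log2 -0.27, adjusted p = 0.00734) and clone19 (log2 -0.45, adjusted p = 6.20e-05). Adam12, a metalloprotease whose human form also cuts binding proteins, fell in both clones: it averaged 70.2 ± 9.91 CPM in Rec, 13.3 ± 2.74 CPM in clone1, 31.6 ± 2.76 CPM in clone19 and 73.8 ± 8.24 CPM in Fh1_fl_fl (SD, n = 5 each). The log2 difference from Fh1_fl_fl was -2.49 in clone1 (adjusted p = 1.92e-16), -1.22 in clone19 (adjusted p = 1.53e-10) and -0.07 in Rec (adjusted p = 0.543). Rec was higher than clone1 by log2 2.41 (adjusted p = 4.20e-16) and than clone19 by log2 1.15 (adjusted p = 5.20e-10).

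**Figure D4:**
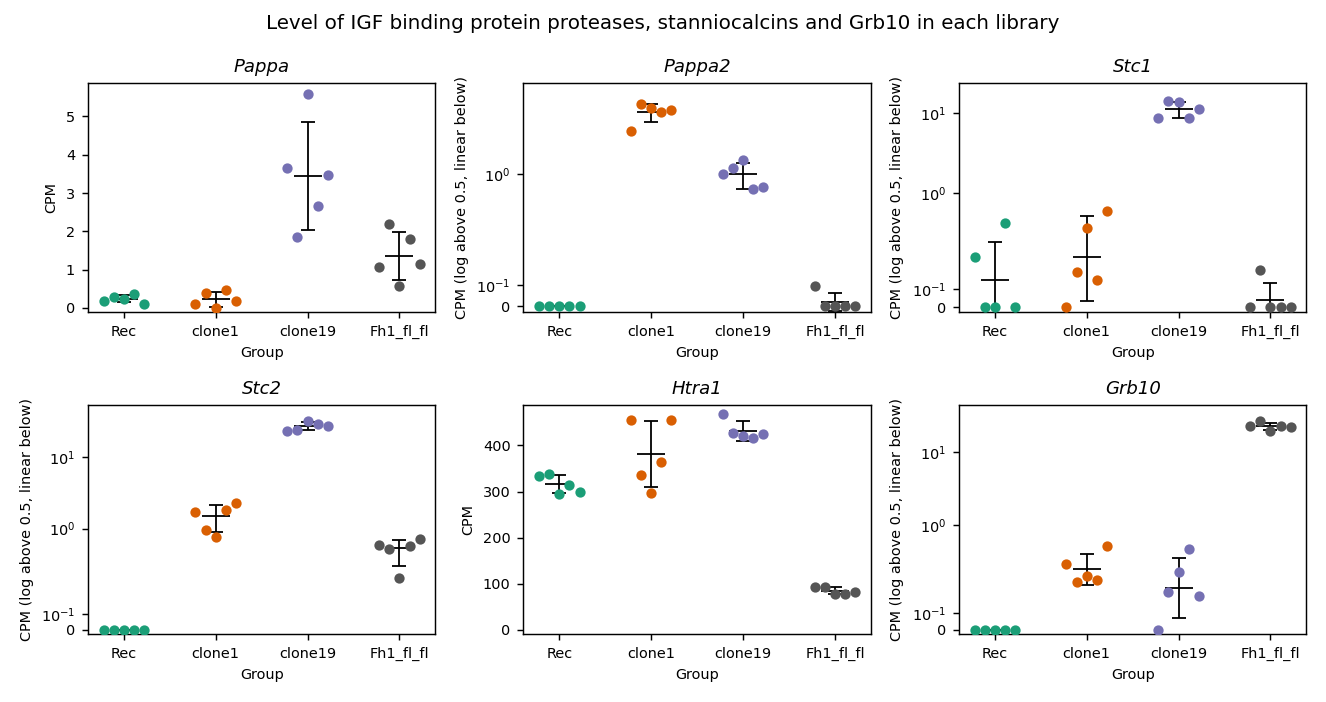
CPM of Pappa, Pappa2, Stc1, Stc2, Htra1 and Grb10, 1 panel per gene, with 1 point per library, the mean as a bar and the SD as whiskers (n = 5 per group); axes marked so are logarithmic above 0.5 CPM. Stc1 and Stc2 are highest in clone19 and Pappa2 in clone1, Htra1 is lowest in Fh1_fl_fl, and Grb10 is at 18.9 to 25.7 CPM in Fh1_fl_fl and below 1 CPM elsewhere.

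Among receptor adaptors, Grb10 was nearly absent from all groups but Fh1_fl_fl. Of 13 adaptors tested, Rec against Fh1_fl_fl gave 5 higher and 4 lower, clone1 gave 8 higher and 3 lower, and clone19 gave 7 higher and 4 lower. Rec against clone1 gave 1 higher and 11 lower, and Rec against clone19 gave 3 higher and 8 lower. In these comparisons 33.4 to 39.7% of all tested genes were called higher and 36.1 to 40.5% lower. Grb10, an imprinted adaptor that restrains signalling from the insulin and IGF1 receptors, measured 0 in all 5 Rec libraries and 0.398, 0.290, 0.330, 0.305 and 0.520 CPM in clone1. It measured 0, 0.230, 0.350, 0.492 and 0.205 CPM in clone19 and 22.3, 25.7, 18.9, 21.98 and 21.3 CPM in Fh1_fl_fl. Every Fh1_fl_fl library thus stood far above every other. Grb10 was at least 430-fold lower in Rec than in Fh1_fl_fl (edgeR adjusted p = 3.38e-18), and lower by log2 -5.82 (SE 0.20) in clone1 and -6.28 (SE 0.22) in clone19. The adjusted p of these differences was 1.31e-17 for clone1 and 4.37e-17 for clone19. Between the clones it did not pass the test (log2 0.46, adjusted p = 0.448).

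Irs2, the docking protein that works beside Irs1, ran opposite to it against Fh1_fl_fl. It averaged 17.5 ± 3.94 CPM in Rec, 28.1 ± 4.36 CPM in clone1, 28.5 ± 7.13 CPM in clone19 and 11.6 ± 2.34 CPM in Fh1_fl_fl (SD, n = 5 each). Irs2 was higher than in Fh1_fl_fl in Rec (log2 0.60, SE 0.18, edgeR adjusted p = 0.00373), clone1 (log2 1.29, adjusted p = 1.51e-07) and clone19 (log2 1.31, adjusted p = 1.98e-07). Rec was lower than clone1 (log2 -0.69, adjusted p = 0.000571) and clone19 (log2 -0.71, adjusted p = 0.000555). The gene 9530052E02Rik overlaps Irs2 on the opposite strand, so reads of that pair cannot be told apart.

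The 3 surface partners of the binding proteins are given as a whole list, which was named after its values were seen. Lrp1, an endocytic receptor, averaged 26.6 CPM in Rec, 78.7 CPM in clone1, 74.5 CPM in clone19 and 50.6 CPM in Fh1_fl_fl. It was lower in Rec (log2 -0.92, edgeR adjusted p = 0.000134) and higher in clone1 (log2 0.64, adjusted p = 0.00273) and clone19 (log2 0.55, adjusted p = 0.00947) than in Fh1_fl_fl. Tmem219, which encodes a receptor of the human IGFBP3 protein, was lower in Rec (log2 -0.56, adjusted p = 0.000178) and did not pass the test in clone1 (log2 0.14) or clone19 (log2 -0.10). Gm20650 overlaps Tmem219 on the opposite strand, so their reads cannot be told apart. Cd93, a surface receptor that binds human IGFBP7 on endothelial cells, was lower in Rec (log2 -1.08, adjusted p = 1.27e-06) and clone1 (log2 -0.74, adjusted p = 0.000156) and higher in clone19 (log2 0.66, adjusted p = 0.000244). The endothelial marker sums given beside Igfbp4 were highest in clone19 too, where Cdh5, at 7.91 CPM, was the only marker to reach 1 CPM. In Rec (0.706 to 1.14 CPM) and clone1 (1.22 to 2.86 CPM) the sums lay above those of Fh1_fl_fl (0.215 to 0.567 CPM). Cd93 went the other way in both of these groups. The part of these markers in the Cd93 difference was not tested.

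Downstream, the PI3K, AKT, FOXO and mTOR core held 24 tested genes. Rec against Fh1_fl_fl gave 5 higher and 12 lower, clone1 gave 7 higher and 11 lower, and clone19 gave 8 higher and 9 lower. Its median log2 difference was -0.18 in Rec, -0.14 in clone1 and -0.07 in clone19, beside -0.03, -0.03 and 0.00 over all tested genes. Of 11 negative regulators, 4 were higher and 4 lower in Rec, 5 and 5 in clone1, and 5 and 4 in clone19. Beside both lists, 33.4 to 38% of all tested genes were called higher and 36.1 to 40.5% lower in these comparisons. Trib3, a pseudokinase that binds AKT, averaged 73.6 ± 1.82 CPM in Rec, 201 ± 19.2 CPM in clone1, 143 ± 5.93 CPM in clone19 and 17.2 ± 3.98 CPM in Fh1_fl_fl (SD, n = 5 each). All 3 groups were higher than Fh1_fl_fl, by log2 2.11 in Rec (edgeR adjusted p = 1.28e-16), 3.56 in clone1 (adjusted p = 8.38e-22) and 3.07 in clone19 (adjusted p = 4.18e-20). Rec was lower than clone1 (log2 -1.45, adjusted p = 1.87e-14) and clone19 (log2 -0.95, adjusted p = 1.69e-10). Inpp4b, a lipid phosphatase that limits PI3K signals, went the other way in the clones, at 30.7 ± 5.82 CPM in Rec, 6.18 ± 2.26 CPM in clone1, 4.41 ± 0.905 CPM in clone19 and 13.4 ± 0.516 CPM in Fh1_fl_fl. It was higher than in Fh1_fl_fl in Rec (log2 1.19, adjusted p = 8.39e-08) and lower in clone1 (log2 -1.13, adjusted p = 2.82e-06) and clone19 (log2 -1.59, adjusted p = 6.42e-08). Every Rec library had more Inpp4b than every clone library, with log2 differences of 2.32 from clone1 (adjusted p = 2.01e-12) and 2.77 from clone19 (adjusted p = 4.36e-13).

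Of the 4 genes of the growth hormone input, which drives Igf1 in the liver, 1 was higher and 3 lower in Rec, 1 higher and 2 lower in clone1, and 1 higher and 1 lower in clone19, against Fh1_fl_fl. The same comparisons called 33.4 to 38% of all tested genes higher and 36.1 to 40.5% lower. Ghr, the growth hormone receptor, averaged 32.8 ± 1.48 CPM in Rec, 147 ± 12.4 CPM in clone1, 119 ± 8.79 CPM in clone19 and 23.2 ± 1.08 CPM in Fh1_fl_fl (SD, n = 5 each). It was higher than in Fh1_fl_fl by log2 0.51 in Rec (edgeR adjusted p = 3.59e-07), 2.67 in clone1 (adjusted p = 2.20e-22) and 2.37 in clone19 (adjusted p = 6.04e-21). Rec was lower than clone1 (log2 -2.17, adjusted p = 1.22e-20) and clone19 (log2 -1.86, adjusted p = 8.53e-19). Stat5a, a transcription factor below that receptor, was lower in all 3, at 2.32 ± 0.631 CPM in Rec, 3.06 ± 0.362 CPM in clone1 and 0.451 ± 0.252 CPM in clone19, against 5.56 ± 0.525 CPM in Fh1_fl_fl. Its log2 difference was -1.27 in Rec (adjusted p = 2.35e-07), -0.86 in clone1 (adjusted p = 4.98e-05) and -3.68 in clone19 (adjusted p = 1.11e-12). Stat3 overlaps Stat5a on the opposite strand, and without a stated strand setting reads of the pair cannot be told apart.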

How the data were processed

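The counts were deposited by the authors as 1 table of whole-number read counts per gene for each of 20 libraries. The submitters' processing notes name the build GRCm38, TopHat2 2.0.4, HTSeq 0.5.3p9 and DESeq 1.10.1, with no settings; strand is not stated. Of all reads or pairs in the tables, 28.8 to 40.3% were set aside as not unique, 3.28 to 6.73% as matching no feature and 0.462 to 0.653% as ambiguous, and these stayed out of all totals.

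Ensembl identifiers were matched to symbols, coordinates and exon lengths of GENCODE M21, and 37693 of 39179 genes had a symbol. Counts were scaled by TMM, and CPM are per TMM-scaled total. One model with all 4 groups was fitted with edgeR 4.0.16 (quasi-likelihood test, R 4.3.3) to the 12671 genes left by edgeR's own filter on low counts, with Benjamini-Hochberg adjustment over all of them and a threshold of 0.05; it excluded 26508 genes. SEs were derived from the fitted log2 difference and its F statistic. Ratios of summed counts have exact 95% intervals, which cover counting error only, and a group at 0 was set at 3 counts. The procedure was tested on simulated data. The members and lists were chosen with earlier results of these data known. Besides the members, the text names Igf2, Igf2r, Irs2 and Igfbp1. It also names the 5 called pathway genes with the largest log2 difference in each of 6 comparisons, among those averaging at least 1 CPM. Named too are the 3 genes nearest in pattern to each of the 3 members with the widest range among those fitted. Other names were chosen after their values were seen. Replicates differed beyond sampling noise, with a chi-square per degree of freedom of at least 2.04 for every pair, and none was counted as a duplicate. Alternatives were library totals, RLE scaling, no filter, DESeq2 1.42.0, fits of only the groups compared, a replicate block, transcript length and leaving out each library.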

Additional observations from a re-analysis of the deposited data

Results flagged for a closer look

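A library stood far from the other 4 of its group in 5 of 76 groups checked, where chance alone flags about 1 in 20. Igf1 measured 0.5113 CPM in clone19 replicate 5, against 0 to 0.115 CPM in the other clone19 libraries, from 5 counts. Htra1 measured 468.3 CPM in clone19 replicate 1 and 417 to 427 CPM in the others. Adam12 measured 26.93 CPM in clone19 replicate 2 and 31.8 to 33.6 CPM in the others. Inpp4b measured 20.33 CPM in Rec replicate 2, against 32.6 to 34.1 CPM in the other Rec libraries, and 2.797 CPM in clone19 replicate 3, against 4.70 to 4.97 CPM in the other clone19 libraries. Rec replicate 2 was also the lowest Rec library for Igf1r, Insr, Irs1, Igf2r and Irs2.

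For 3 genes every Rec library lay on one side of every Fh1_fl_fl library and every clone library on the other. The log2 difference of Igfbp7 from Fh1_fl_fl was -0.96 in Rec, 0.4844 in clone1 and 0.4851 in clone19, and the difference between these effects was not tested, since Igfbp7 is a member. Stc2 had no count in Rec and was at least 10.9-fold lower there than in Fh1_fl_fl, while its log2 difference was 1.428 in clone1 and 5.588 in clone19. The edgeR adjusted p of Rec against the clones was 4.65e-09 for clone1 and 1.40e-17 for clone19. Inpp4b was at log2 1.19 in Rec, -1.133 in clone1 and -1.585 in clone19 relative to Fh1_fl_fl, and Rec differed by edgeR's test from clone1 (adjusted p = 2.01e-12) and from clone19 (adjusted p = 4.36e-13). The comparisons share the Fh1_fl_fl libraries.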

How the results depend on the processing

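Among the members and the named pathway genes, none that was called or had groups without overlap changed direction under any alternative run, and the direction of other called genes was not followed; the sign turned for Igfbp7 and Irs2 between the clones, Pappa between Rec and clone1 and Adam12 between Rec and Fh1_fl_fl, all of them close to 0. The count of called genes stayed within 1.5 times its value throughout; with the replicate block it was 8918 in Rec against Fh1_fl_fl beside 8966 without, 9926 beside 9954 in clone1, and 9186 beside 9241 in clone19. Leaving out each of the 20 libraries gave 8642 to 9155, 9778 to 10135 and 9017 to 9471 calls in these comparisons, and 46 to 49, 53 to 56 and 48 to 52 calls among the pathway genes. Replicate numbers did not pair the samples: of 30 same-numbered pairs, 6 had a correlation of deviations over 0.1 (range -0.20 to 0.16), and 5 correlated best with their own number. The block added 1 pathway call, Htra1 between the clones (adjusted p = 0.0335; 0.0802 without).

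Scaling by library totals moved the difference from Fh1_fl_fl of Irs1 to log2 -0.64 in Rec, -0.45 in clone1 and -0.95 in clone19, and of Igfbp7 to 0.36 in clone19. Without Fh1_fl_fl replicate 4, which held 5 of the 11 Igfbp4 counts of its group, the log2 difference of Igfbp4 from Fh1_fl_fl was 11.23 in clone1 and 7.22 in clone19, beside 10.68 and 6.70. The longest transcript in place of merged exons put Igfbp4 at 16.5% of the clone1 binding protein sum, beside 14.7%. Among the named pathway genes, 14 calls were lost and 19 gained over all alternatives; the losses were those of Igf2r and of Stc1 given with those genes, and Igf2r between the clones (adjusted p = 0.0328; range over alternatives 0.000118 to 0.136). Depth limits Igf1, Igfbp2, Igfbp5 and Igfbp6, whose libraries hold few counts or none.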

Other observations

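The genes beside Igfbp4 and Igfbp3 were looked at after the values of the members were seen. Within 200 kb of Igfbp4, 8 genes were tested, of which edgeR's test called 5 higher and 1 lower in Rec, 5 higher and 2 lower in clone1, and 5 higher and 2 lower in clone19, against Fh1_fl_fl. Over all tested genes, these comparisons called 33.4 to 38% higher and 36.1 to 40.5% lower. Tns4, which encodes a focal adhesion protein and lies 11.3 kb from Igfbp4, had 21 counts in Rec, 1324 in clone1, 205 in clone19 and 1 in Fh1_fl_fl. Scaled for depth, its level relative to Fh1_fl_fl was 25.0 times in Rec (95% counting interval 4.03 to 1036), 1956 times in clone1 (350 to 77310) and 357 times in clone19 (63.3 to 14150). Ccr7, a chemokine receptor 89.8 kb away, had 5 counts in Rec, 157 in clone1, 23 in clone19 and 2 in Fh1_fl_fl. Both genes and Igfbp4 thus had their highest counts in clone1 and the next highest in clone19. The other tested neighbours differed far less from Fh1_fl_fl. Top2a and Cdc6 had their largest log2 difference in Rec (1.07 and 1.62), and Cdc6 and Smarce1 were lower in both clones. Rara was not called in either clone. Wipf2 was higher in clone1 (log2 0.59) and clone19 (log2 0.29), and Rapgefl1 was higher in Rec and both clones (log2 0.64 to 0.77).

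Near Igfbp3, 1 gene was tested within 200 kb. Adcy1, an adenylyl cyclase 27.6 kb away, averaged 0.887 CPM in Rec, 0.388 CPM in clone1, 0.922 CPM in clone19 and 23.9 CPM in Fh1_fl_fl. It was lower than in Fh1_fl_fl by log2 -4.69 in Rec (edgeR adjusted p = 9.77e-18). In clone1 the difference was log2 -6.01 (edgeR adjusted p = 1.33e-18), and in clone19 it was -4.76 (adjusted p = 3.67e-17). Its mean was thus lowest in clone1 and highest in Fh1_fl_fl, as that of Igfbp3 was. The clone1 libraries of Adcy1 (0.0968 to 0.763 CPM, 17 counts) overlapped those of Rec and clone19, however. Igfbp3 had no count in clone1 and no such overlap.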
